A study of Mus musculus with 20 samples.

Results

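Lcn12, Nup210 and Dcaf12l2 are 3 of the 30222 gene names on an Agilent mouse array that was used to measure RNA in cultured dorsal root ganglion (DRG) neurons, the sensory neurons of the spinal nerves. They were selected on their measured signal, which was seen, on the arrays of slides 1 and 3, to differ from that of unstimulated neurons after 5 hr of the 90/5 pattern and not after 2 hr of the 18/1 pattern. The signals of unstimulated, 18/1 2 hr and 90/5 5 hr neurons therefore chose the genes, and differences among these 3 conditions are given below as descriptions with no test. The choice had no numerical threshold of its own. Each gene has 2 probes, and all 3 genes are among the 10355 names with a probe past the spot filter in all 20 samples, which asked for a signal at least 2 times the local background and no mark for a non-uniform spot.

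The neurons came from NIH Swiss mouse embryos of embryonic day 13.5. The protocol in the labels says that the cells were dissociated from spinal cords, while the labels call them DRG neurons. They were grown with nerve growth factor, and dividing non-neuronal cells were held back with fluorodeoxyuridine. Unstimulated cultures were compared with cultures that fired, in answer to electric pulses, bursts of 18 action potentials every 1 min (18/1) or of 90 every 5 min (90/5) for 2 hr or 5 hr, so that both patterns held as many action potentials over time in different grouping. Cultures were pooled for each condition. Each of the 5 conditions has 4 samples on 2 arrays, and the 2 colours of an array (Cy3 and Cy5) held samples of the same condition. Unstimulated neurons (arrays 1 and 2) and 18/1 2 hr (arrays 3 and 4) lie on slide 1, 18/1 5 hr (arrays 5 and 6) and 90/5 2 hr (arrays 7 and 8) on slide 2, and 90/5 5 hr (arrays 9 and 10) alone on slide 3. Slide and condition cannot be told apart in any comparison across slides. For 18/1 5 hr and 90/5 2 hr the labels give both samples of an array the same dye, although each array was read in both colours, so which replicate was in which colour is not settled and array and colour serve as names for these samples. The study's methods call the samples biological replicates, and a figure legend counts 4 replicate experiments per condition. How the pooled cultures were divided among the 4 samples is not given there, so p-values measure only the spread between these samples, which may be technical.

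The slides differed in quality. The median spot was 2.27 to 2.94 times its background on slide 1, 3.64 to 10.4 times on slide 2 and 2.66 to 4.91 times on slide 3. Between 45 and 14642 spots per sample were marked non-uniform on slide 2, against 6 to 36 on slide 1 and 37 to 85 on slide 3, and between 840 and 2800 were saturated there, against 0 to 486 on slide 1 and 0 on slide 3. Of 17 sensory neuron markers, 16 were well above background in all 20 samples. Trpv1, the capsaicin receptor, was the exception.

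The 3 genes have different functions. Lipocalins are small secreted proteins whose barrel-shaped pocket carries hydrophobic molecules such as retinoids and steroids, and Lcn12 (lipocalin 12) is best known from the epididymis. Nup210, also called gp210, is one of the few nucleoporins that span the nuclear membrane and anchor the nuclear pore complex. It is known for a role in the differentiation of muscle and neural progenitors. Dcaf12l2 (DDB1 and CUL4 associated factor 12-like 2) is an X-linked relative of Dcaf12, whose WD repeat protein is a substrate receptor of the CUL4-DDB1 ubiquitin ligase, the enzyme that tags proteins for breakdown.

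What each gene's signal rests on can be read from its probes, each of 60 bases. Stretches of 30 bases are shown, in the coding sense, for the brightest probe of each gene, from which all levels come unless stated otherwise, and for the other probe of Dcaf12l2. Capitals mark AATAAA, the sequence of the polyadenylation signal, in the probes of Lcn12 and Nup210, and the dinucleotide repeat in those of Dcaf12l2.

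Lcn12 brightest probe: ctgcctctgctctcaacacaAATAAAcaca

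Nup210 brightest probe: ctgcatttgtttAATAAAgttctgtgtagt

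Dcaf12l2 brightest probe: GAGAGAGAGAGAGAGAGAGAGAGAtttcta

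Dcaf12l2 other probe: GTGTGTGTGTgagtgatttattttcaaagt

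The Lcn12 probe lies at chr2:25346380-25346439 and the Nup210 probe at chr6:90963064-90963123, both on the minus strand of mm9, the build of the array annotation. The Dcaf12l2 probes lie at chrX:41719459-41719518 and chrX:41719612-41719671, also on the minus strand, with starts 153 bases apart. Whether these positions are coding or untranslated is not given in the sources used here. All 3 brightest probes hold AATAAA on the printed strand, which 12.6% of the 39429 array probes of 60 bases also do. The brightest Dcaf12l2 probe opens with 12 GA units in a row, and the other with 5 GT units. At least 5 GA units in a row occur in 0.0888% of the array's probes and at least 5 GT units in 0.347%, each counted on the printed strand. The remaining probes lie upstream, for Lcn12 at chr2:25349264-25349323 and for Nup210 at chr6:91035854-91035913, with starts 2884 and 72790 bases from those of the brightest probes.

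Lcn12 was low on slide 2 and high at 90/5 5 hr. Its normalized log2 signal in unstimulated neurons was 10.73, 11.03, 10.45 and 10.99 in replicates 1 to 4. At 18/1 2 hr it was 10.93, 11.03, 10.47 and 10.99. Samples of these 2 conditions covered almost the same range, and the difference was 0.05 on the log2 scale (standard error 0.44). For comparison, 6.14% of all 10355 genes had no overlap between the 4 samples of 18/1 2 hr and the 4 unstimulated samples.

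At 90/5 5 hr the Lcn12 signal was 12.26, 12.14, 12.41 and 12.45, above every sample of the other 4 conditions. Its mean of 12.31 ± 0.14 (SD, n = 4) lay 1.51 above the unstimulated mean of 10.80 ± 0.27 (standard error 0.44), or 2.85-fold. In this comparison, which entered the choice of the genes, 11.7% of genes had groups that did not overlap. The share of genes beyond all samples of the other 4 conditions was not counted. When slides 1 and 3 were normalized and fitted without slide 2, the Lcn12 difference was 1.41 with a smaller standard error of 0.15. The deposited intensities, before any normalization, were 4510, 7626, 2537 and 7418 units against 1200, 1491, 1129 and 1302 in unstimulated neurons. The median spot was brighter too, at 2.66 to 4.91 times its background at 90/5 5 hr against 2.27 to 2.59 times in unstimulated neurons.

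On slide 2 Lcn12 differed between arrays of the same condition. At 18/1 5 hr it was 9.91 and 10.04 in the colours of array 5 but 8.04 and 7.67 in those of array 6. At 90/5 2 hr it was 9.58 and 9.68 on array 7 and 8.85 and 8.58 on array 8. All 8 samples lay below all unstimulated samples, at a mean difference of -1.89 for 18/1 5 hr and of -1.63 for 90/5 2 hr (standard error 0.44 for both). Groups without overlap were common on slide 2: 53.8% of all genes at 18/1 5 hr and 26.4% at 90/5 2 hr lay wholly on one side of the unstimulated samples. The array means at 18/1 5 hr were 2.12 apart, more than the whole difference from unstimulated neurons. Without array 6 that difference was -0.83, and without array 5 it was -2.95. The deposited Lcn12 intensities of array 5, 1055 and 1649 units, spanned those of the unstimulated samples. The lower normalized level on array 5 is thus a level relative to the other, brighter spots of that array. On the other arrays of slide 2 the deposited intensities were below all unstimulated samples (1129 to 1491 units). They were 388 and 486 units on array 6, 761 and 848 on array 7, and 440 and 523 on array 8.

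In order of mean level, Lcn12 thus ran from 18/1 5 hr (8.91 ± 1.24) and 90/5 2 hr (9.17 ± 0.54), which overlapped, through unstimulated (10.80 ± 0.27) and 18/1 2 hr (10.85 ± 0.26), which also overlapped, to 90/5 5 hr (12.31 ± 0.14; SD, n = 4 in each). No samples overlapped between 18/1 2 hr and 90/5 5 hr, as for 6.16% of all genes, but these values entered the choice of the gene. None overlapped between 90/5 2 hr and unstimulated, as for 26.4% of all genes.

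**Figure D1:**
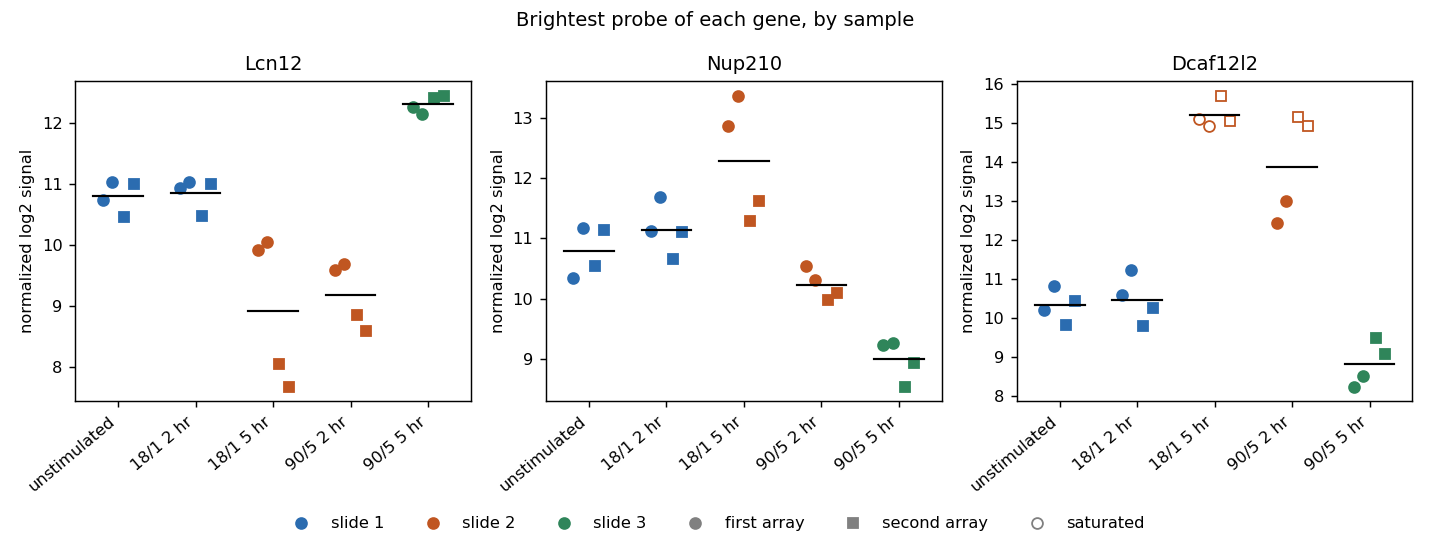
Normalized log2 signal (vertical axis) of the brightest probe of Lcn12, Nup210 and Dcaf12l2 in each of the 20 samples, by condition (horizontal axis). Colours are slides, circles and squares the first and second array of a condition, open symbols saturated spots and black lines means of 4 samples. At 90/5 5 hr Lcn12 lies at 12.14 to 12.45, above all other samples, while Nup210 and Dcaf12l2 lie below all other samples. These values entered the choice of the genes, and 11.7% of all genes had no overlap between 90/5 5 hr and unstimulated samples.

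The second Lcn12 probe did not show the higher signal at 90/5 5 hr. It was dim throughout, at 1.17 to 2.90 times its background, and was past the spot filter in 6 of 20 samples. Its normalized log2 signal was 6.87 to 7.10 in unstimulated neurons and 6.91 to 7.02 at 90/5 5 hr, and the difference between the 2 conditions was -0.034 (standard error 0.16). It carried the mark for a signal well above background in all 4 samples of both conditions, at 1.17 to 1.61 and 1.64 to 2.15 times its background. On slide 2 it read lower, as the brightest probe did, at 6.35 to 6.48 at 18/1 5 hr and 6.55 to 6.68 at 90/5 2 hr, but it carried that mark in none of these 8 samples.

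Nup210 ran the opposite way at 90/5 5 hr and was highest at 18/1 5 hr. Its normalized log2 signal in unstimulated neurons was 10.34, 11.16, 10.54 and 11.15 in replicates 1 to 4. At 18/1 2 hr it was 11.13, 11.69, 10.65 and 11.10. These ranges overlapped, with a difference of 0.34 (standard error 0.38).

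Nup210 at 90/5 5 hr was at 9.24, 9.27, 8.55 and 8.94, below every sample of the other conditions. These values entered the choice of the gene. Against unstimulated neurons alone, 11.7% of all genes had groups that did not overlap. The mean of 8.999 ± 0.34 against 10.80 ± 0.42 in unstimulated neurons (SD, n = 4) corresponds to a difference of -1.80 (standard error 0.38), or 3.48-fold lower. Without slide 2 in the fit it was -1.84 (standard error 0.20). The deposited intensities were 513, 1009, 168 and 648 units at 90/5 5 hr against 918, 1644, 1192 and 1437 in unstimulated neurons. On this unnormalized scale the highest sample of 90/5 5 hr overlapped the lowest unstimulated one.

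The 2 conditions of slide 2 gave the one comparison of these genes that the choice did not use and that lies within a slide, 90/5 2 hr against 18/1 5 hr. It sets a short time of the long bursts against a long time of the short bursts, so pattern and time differ together. Nup210 was lower at 90/5 2 hr. Its signal was 12.86 and 13.36 on array 5 and 11.29 and 11.63 on array 6 (18/1 5 hr), and 10.53 and 10.30 on array 7 and 9.98 and 10.09 on array 8 (90/5 2 hr). All 4 samples of 90/5 2 hr lay below all 4 of 18/1 5 hr. The difference was -2.06 on the log2 scale (standard error 0.38, 95% interval -2.84 to -1.27), or 4.16-fold, with an adjusted p of 0.00396 in limma over 10355 genes. Standard errors, intervals and p-values here take their spread from all 20 samples, among them those that chose the genes. The SD of Nup210 was 0.99 at 18/1 5 hr and 0.24 at 90/5 2 hr, against 0.34 to 0.42 in the 3 conditions that chose the genes. On slide 2 alone the standard error was 0.52. In this comparison limma called 12.9% of all genes (1050 higher and 286 lower at 90/5 2 hr), and 20.1% of genes had groups that did not overlap. The call was lost when each array was averaged to 1 value (adjusted p 0.080) and when slide 2 was normalized and fitted on its own (adjusted p 0.234), with differences of -2.06 and -2.21. It was also lost in the methods' t-test (p 0.0888, or 0.300 after Benjamini-Hochberg adjustment). The difference was -1.23 without array 5 and -2.89 without array 6, and it kept its call without any single array or sample.

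Against unstimulated neurons, across slides, Nup210 differed by 1.49 at 18/1 5 hr and by -0.57 at 90/5 2 hr (standard error 0.38 for both). At 18/1 5 hr no sample overlapped the unstimulated ones, as for 53.8% of all genes, although the arrays were 1.66 apart and the difference without array 5 was 0.66 and without array 6 was 2.32. At 90/5 2 hr the samples overlapped them. The order of Nup210 was 90/5 5 hr (8.999), 90/5 2 hr (10.23 ± 0.24), unstimulated (10.80), 18/1 2 hr (11.14 ± 0.42) and 18/1 5 hr (12.29 ± 0.99; SD, n = 4). Only the step from 90/5 5 hr to 90/5 2 hr had no overlap between neighbours, as for 19.2% of all genes. It is a step between slides, and the 90/5 5 hr values entered the choice of the gene.

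The upstream probe of Nup210 is a further measurement in the same samples. It was not well above background in any sample outside 18/1 5 hr. At 18/1 5 hr it was well above background in all 4 samples, at 8.95 and 9.55 on array 5 and 6.95 and 7.05 on array 6. The spots of array 5 were marked non-uniform in both colours. At 90/5 2 hr it read 6.30 to 6.63. In each dim sample the floor was the lowest signal of probes well above background, or the reading of this probe where that was higher, as in unstimulated replicates 1 and 2. Above this floor the level at 18/1 5 hr was at least 1.99-fold higher than at 90/5 2 hr and at least 3.18-fold higher than in unstimulated neurons. The floor is approximate. In 18/1 2 hr replicate 4 this probe read 6.92, over the lowest such signal of 6.05, and was still not well above background. These bounds rest on array 5. Without it the mean of 7.002 at 18/1 5 hr was under the floor of 7.13 at 90/5 2 hr, which leaves no bound there, and the bound against unstimulated neurons was 1.46-fold. At 90/5 5 hr, where the brightest probe was low, the upstream probe was near background, as in unstimulated neurons, and could not show a lower level.

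**Figure D2:**
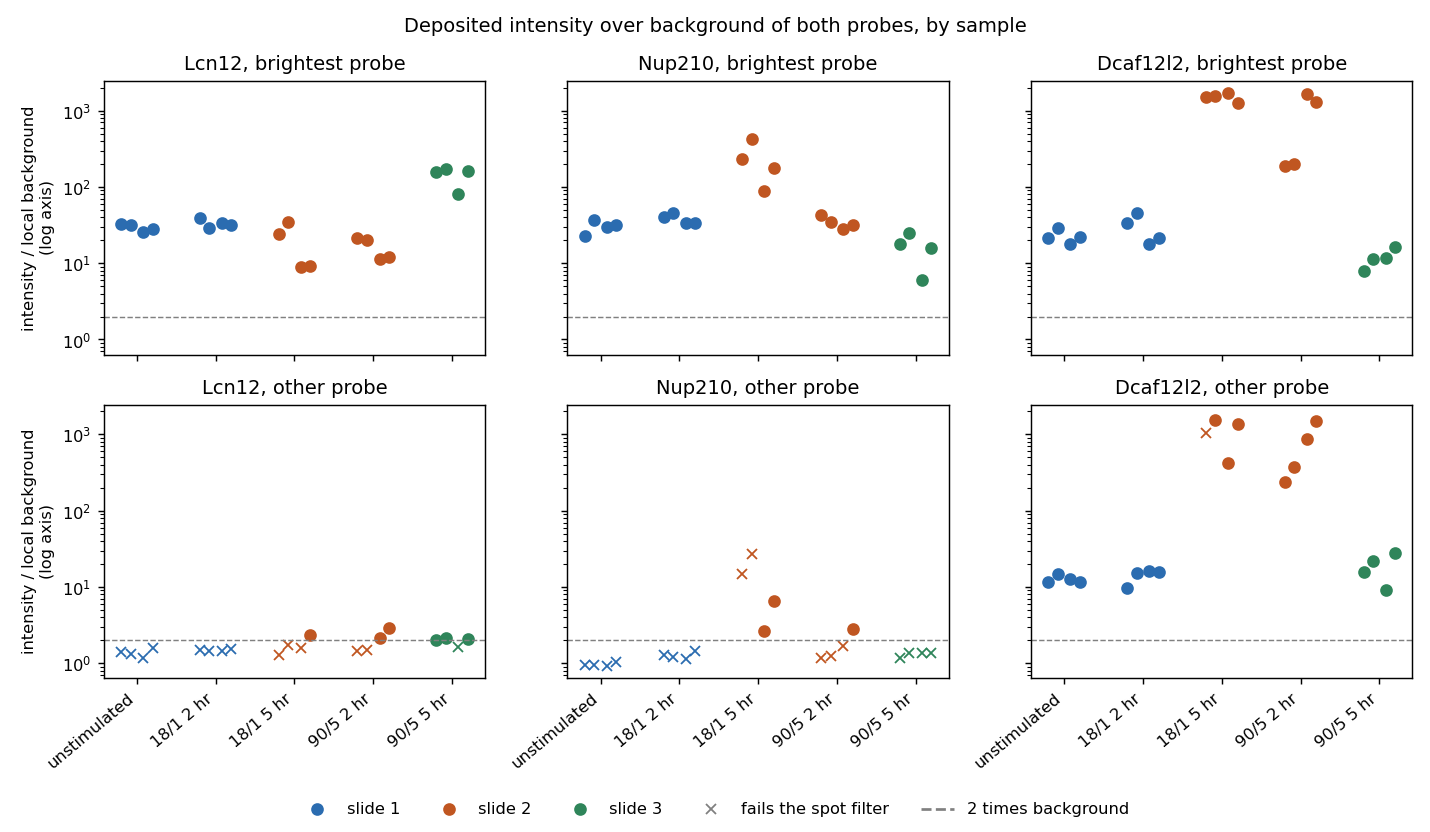
Deposited intensity divided by local background (vertical log axis) of both probes of each gene in the 20 samples, by condition (horizontal axis), with the brightest probe above and the other below. Colours are slides, crosses mark spots that fail the filter and the dashed line is 2 times background. The second Lcn12 probe stays between 1.17 and 2.90, the second Nup210 probe is at 2.68 or more in all samples of 18/1 5 hr, and both Dcaf12l2 probes lie at 186 or more on slide 2.

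Dcaf12l2 was low at 90/5 5 hr and very bright on slide 2. Its normalized log2 signal was 10.21, 10.82, 9.82 and 10.43 in unstimulated neurons. At 18/1 2 hr it was 10.59, 11.23, 9.78 and 10.25, a difference of 0.15 (standard error 0.53) between overlapping groups. After 5 hr of 90/5 it was 8.23, 8.50, 9.48 and 9.06, below all other samples of this probe. These values, too, entered the choice, and 11.7% of all genes had no overlap between 90/5 5 hr and unstimulated samples.

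The mean at 90/5 5 hr, 8.82 ± 0.56 (SD, n = 4), was below the unstimulated mean of 10.32 ± 0.42, with a difference of -1.50 (standard error 0.53), or 2.83-fold lower. Without slide 2 the difference was -1.57 (standard error 0.33). In deposited intensity the groups overlapped slightly, with 221, 517, 338 and 723 units at 90/5 5 hr and 835, 1302, 715 and 871 in unstimulated neurons. The other Dcaf12l2 probe, well above background in all 20 samples, gave a smaller difference. It was at 8.78, 9.25, 8.76 and 9.69 at 90/5 5 hr against 9.18, 9.93, 9.13 and 9.66 in unstimulated neurons, and the groups overlapped. Its difference was -0.35 (standard error 0.33). The 2 probes, whose starts lie 153 bases apart in the same transcript, therefore gave 2.83-fold and 1.28-fold for the same samples, and the difference between the probes was not tested.

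On slide 2 the brightest Dcaf12l2 probe was saturated in all 4 samples of 18/1 5 hr and in both samples of array 8. The signal at 18/1 5 hr was 15.09, 14.92, 15.70 and 15.05, at least 29.3-fold above unstimulated neurons (difference 4.87, standard error 0.53). With the signals only centred on their medians it was at least 17.7-fold (difference 4.15). At 90/5 2 hr it was 12.43 and 13.00 on array 7, which was not saturated, and 15.14 and 14.93 on array 8. With 2 of these 4 samples saturated, the difference from unstimulated neurons was at least 3.55, or 11.7-fold. It was 2.39 without array 8, where no spot was saturated, and at least 4.71 without array 7, where both were. The other probe was at 14.22, 14.64, 13.03 and 14.13 at 18/1 5 hr, a difference of at least 4.53, and at 12.88, 13.91, 13.87 and 14.68 at 90/5 2 hr, a difference of at least 4.36 (standard error 0.33 for both). It was saturated in 1 of 4 samples of each condition, and its Cy3 spot on array 5 was marked non-uniform.

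Between the conditions of slide 2, Dcaf12l2 did not pass the threshold. The difference of 90/5 2 hr from 18/1 5 hr was -1.32 (standard error 0.53, 95% interval -2.42 to -0.21) with an adjusted p of 0.0983 in limma, and saturated spots in both groups keep it from being a bound. It passed without array 8, where saturation at 18/1 5 hr makes -2.48 a bound and the true difference may be larger (adjusted p 0.000648). It also passed without the Cy3 sample of array 8 (-1.59, adjusted p 0.0403), and without array 7 it was -0.16, neither a bound since saturated spots remained in both groups. The other probe gave -0.17 (adjusted p 0.808 in limma), also no bound, since it had a saturated spot in each group. For Lcn12 the same comparison gave 0.26 (95% interval -0.65 to 1.16) with an adjusted p of 0.729 in limma. It turned to 1.32 with an adjusted p of 0.0321 without array 5 and to -0.80 without array 6, so its direction rested on single arrays.

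In order of mean level Dcaf12l2 ran from 90/5 5 hr (8.82) through unstimulated (10.32) and 18/1 2 hr (10.47 ± 0.61), which overlapped, to 90/5 2 hr (13.87 ± 1.36) and 18/1 5 hr (15.19 ± 0.35; SD, n = 4), which overlapped within saturated signals.

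Genes with GT-repeat probes were mostly higher on slide 2. In 99 other genes whose brightest probe holds at least 5 GT units in a row, the median difference from unstimulated neurons was 1.48 at 18/1 5 hr and 1.59 at 90/5 2 hr, beside -0.23 and -0.08 over all 10355 genes. At each of the 2 conditions 95 of the 99 were higher, beside 4205 (18/1 5 hr) and 4490 (90/5 2 hr) of all 10355 genes. The median of the 99 at 90/5 5 hr was -0.28, beside -0.01 over all genes, and at 18/1 2 hr it was 0.03. In the 19 other genes with at least 5 GA units, the repeat of the brightest Dcaf12l2 probe, the medians were 0.31 at 18/1 5 hr, 0.56 at 90/5 2 hr and -0.15 at 90/5 5 hr. At the 2 conditions of slide 2, 10 and 11 of the 19 were higher. These genes ranged widely, from -1.89 to 3.01 at 18/1 5 hr, and none was as high as Dcaf12l2 there. The part of the repeats in the Dcaf12l2 signal was not tested.

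**Figure D3:**
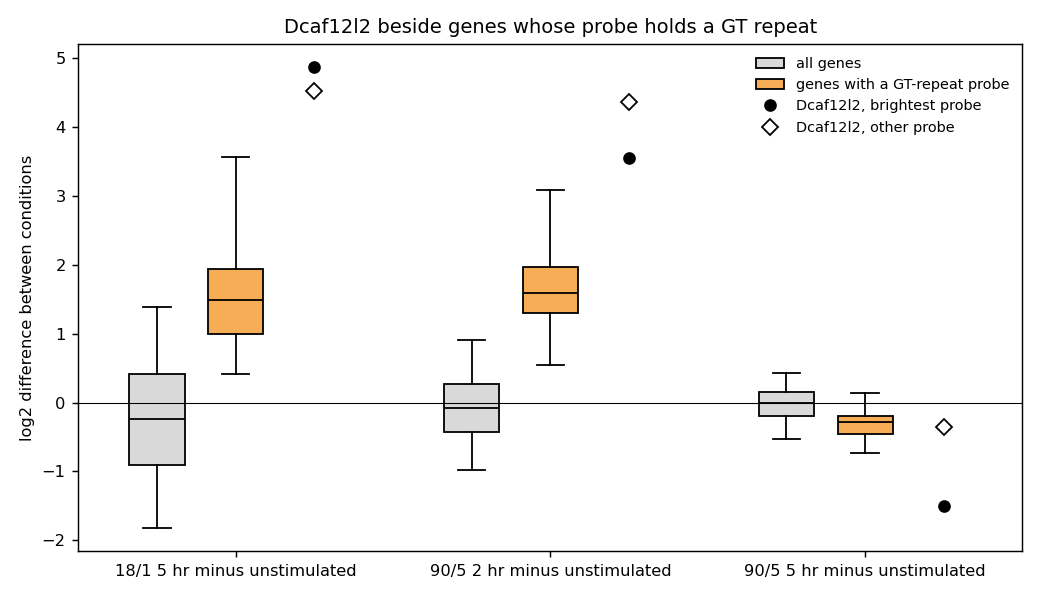
Log2 difference from unstimulated neurons (vertical axis) at 18/1 5 hr, 90/5 2 hr and 90/5 5 hr for all 10355 genes (grey) and for 99 genes whose probe holds at least 5 GT units (orange), beside both Dcaf12l2 probes. Boxes span quartiles with the median, and whiskers the 5th to 95th percentile. The orange medians are 1.48, 1.59 and -0.28, and the brightest Dcaf12l2 probe lies at 4.87 and 3.55, both lower bounds because of saturation, and at -1.50.

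The base composition of the probes also went with shifts on slide 2. The brightest probes hold 31 (Lcn12), 23 (Nup210) and 22 (Dcaf12l2) G or C bases of 60. Among 808 genes with a probe within 1 base of the G and C count of Lcn12, the median difference at 18/1 5 hr was -0.80 and the 5th percentile -2.10, below the -1.89 of Lcn12. At 90/5 2 hr the 5th percentile of the same genes was -1.08, above the -1.63 of Lcn12.

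For Nup210, the 2043 genes of like G and C count had a 5th percentile of -0.84 for 90/5 2 hr against 18/1 5 hr, where Nup210 was at -2.06. For Dcaf12l2, the 3825 like genes had a 95th percentile of 1.60 at 18/1 5 hr, against at least 4.87. When each sample's trend on the G and C count was removed, a step chosen after the data were seen, the 90/5 5 hr differences were 1.44, -1.75 and -1.44 for Lcn12, Nup210 and Dcaf12l2. The Lcn12 difference at 18/1 5 hr shrank to -1.02, and Nup210 at 90/5 2 hr stayed below 18/1 5 hr by -2.04 (adjusted p 0.00844 in limma).

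**Figure D4:**
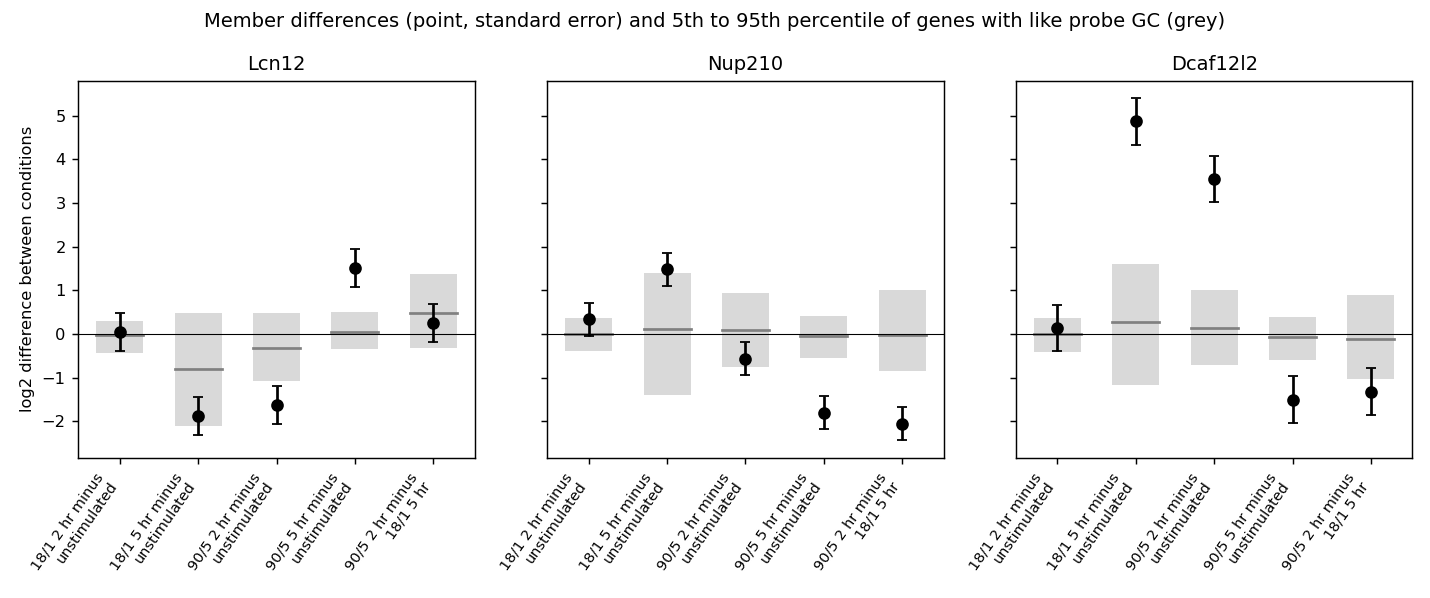
Log2 difference (vertical axis) in each of 5 comparisons (horizontal axis) for Lcn12, Nup210 and Dcaf12l2, as points with standard errors, beside the 5th to 95th percentile (grey) and median (grey line) of genes whose probe has a like count of G and C bases. The genes were selected on 90/5 5 hr and 18/1 2 hr, so their places there follow from the choice. For 90/5 2 hr against 18/1 5 hr, Nup210 lies at -2.06, below the grey range.

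The relatives of the 3 genes were counted in the same fit. Of 22 other lipocalins listed, 21 are on the array and 4 passed the spot filter, so most of the family was not followed here. None of the 4 was called in either direction at 90/5 5 hr, where limma called 0.0676% of all genes and 382 genes had an unadjusted p under 0.05, and where their median difference was 0.16, or for 90/5 2 hr against 18/1 5 hr, where it was 0.61 beside 0.16 over all genes. C8g, a chain of complement component C8, differed by 0.56 at 90/5 5 hr (standard error 0.31), and Apod, a carrier of arachidonic acid made by glia, by 0.32 (standard error 0.44). Rbp4, the retinol carrier of blood, differed by -0.07 (standard error 0.34), and Lcn2, the iron-siderophore binder of inflammation, by -0.01 (standard error 0.30). Ptgds, the prostaglandin D synthase of brain, did not pass the filter.

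Of 31 other nucleoporins, all on the array, 22 passed the filter. None was called at 90/5 5 hr in either direction, where limma called only 0.0676% of all genes. The median there was -0.06 beside -0.01 over all genes. For 90/5 2 hr against 18/1 5 hr, 3 of the 22 rose and none fell, beside 12.9% of all genes called. The median was 0.23, beside 0.16 over all genes, while Nup210 fell. These calls, like that of Nup210, were lost with array means and on slide 2 alone, where no gene was called. Ndc1 (Tmem48 on the array) and Pom121 code for the other nucleoporins that span the membrane. Ndc1 differed by 0.31 (standard error 0.33) and Pom121 by 0.12 (standard error 0.38) in that comparison, with adjusted p-values of 0.545 and 0.868 in limma. Nup210l, the paralogue of Nup210, did not pass the filter.

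Of 25 genes of the CUL4-DDB1 ligase and its adaptors, 19 passed the filter. None was called at 90/5 5 hr, beside 0.0676% of all genes called, and the median was -0.0029, beside -0.01 over all genes. For 90/5 2 hr against 18/1 5 hr, 2 of the 19 rose and 1 fell, beside 12.9% of all genes called, with a median of 0.43 beside 0.16 over all genes. The one that fell was Dcaf12l1, the nearest relative of Dcaf12l2 by name, at -1.18 (standard error 0.28, adjusted p 0.0114 in limma). No gene was called in this comparison with array means or on slide 2 alone, so all calls of this list were lost there. Dcaf12l1 differed from unstimulated neurons at 90/5 5 hr by -0.46 (standard error 0.28), and Dcaf12 by -0.06 (standard error 0.31). The ligase core showed small differences at 90/5 5 hr, 0.12 for Ddb1 (standard error 0.28) and -0.20 for the cullin Cul4b (standard error 0.25). Cul4a did not pass the filter.

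Genes with the course most like each member were taken by Pearson's r of the log2 signals, a description over samples that share arrays, slides and normalization. Over all 20 samples, Lcn12 was most like Olfr629, an olfactory receptor gene (r = 0.97), Nos2, the inducible nitric oxide synthase (r = 0.95), and Fam110a (r = 0.94). Nup210 was most like the unnamed probe A_55_P2106440 (r = 0.94), LOC100045292 (r = 0.92) and Pdik1l (r = 0.90). Dcaf12l2 was most like the unnamed probe A_55_P1987847 (r = 0.98), Cd244, a receptor of natural killer cells (r = 0.98), and the unnamed probe A_55_P2115364 (r = 0.97). Of all other genes, 199 had r above 0.9 with Dcaf12l2, 25 with Lcn12 and 3 with Nup210, an order that did not hold over the 12 samples of slides 1 and 3, where these counts were 11, 26 and 30.

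Over the 12 samples of slides 1 and 3 other genes came first. They were AK158083 (r = 0.99), Tcf7l2, a transcription factor of the Wnt pathway (r = 0.97), and AU020094 (r = 0.97) for Lcn12. For Nup210 they were the unnamed probe A_55_P2126050 (r = 0.98), Dennd5b (r = 0.98) and the bitter taste receptor Tas2r109 (r = 0.98). For Dcaf12l2 they were the unnamed probe A_55_P1986680 (r = 0.95), Dnase2a, a lysosomal nuclease (r = 0.94), and Pla2g16, a phospholipase (r = 0.94). Among the 3 genes themselves, r over all 20 samples was -0.46 for Lcn12 and Nup210, -0.89 for Lcn12 and Dcaf12l2, and 0.58 for Nup210 and Dcaf12l2, with 6 saturated Dcaf12l2 spots among them. Over the 12 samples of slides 1 and 3, which chose the genes and hold no saturated spot of theirs, r was -0.84, -0.70 and 0.85 for these pairs.

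Markers of other cells that such cultures can hold were read beside these levels. Fewer cells of a type and less RNA per cell cannot be told apart in bulk RNA. Linear signals were summed over the markers of a cell type, and the log2 of the sum is given. For 4 endothelial markers it had an order like that of Lcn12, at 11.21 to 11.75 in unstimulated neurons, 11.03 to 11.56 at 18/1 2 hr, 9.39 to 9.89 at 18/1 5 hr, 10.005 to 10.98 at 90/5 2 hr and 11.88 to 12.56 at 90/5 5 hr. Kdr, a receptor for VEGF, made up most of this sum, so the order is mainly that of Kdr and not of the 4 markers as a set. It was the only one of the 4 well above background in all 20 samples, at 10.86 to 11.47 in unstimulated neurons and 11.69 to 12.43 at 90/5 5 hr. Pecam1 was at 7.99 to 8.23 and at 7.97 to 8.23 in these conditions, Cdh5 was at 6.95 to 7.80 and at 6.88 to 7.18, and Tek was well above background in no sample of either.

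The summed signal of 8 fibroblast markers reached its highest value at 18/1 5 hr, as Nup210 did. It was 16.53 to 16.77 there, against 14.67 to 16.09 in unstimulated neurons. At 90/5 2 hr, where it overlapped 18/1 5 hr, it was 14.92 to 16.75, and at 18/1 2 hr it was 15.41 to 16.39. It was 14.93 to 16.07 at 90/5 5 hr, within the range of unstimulated neurons. Dcaf12l2 was bright in both conditions of slide 2, where saturation hides their order. The 11 glial markers summed to 16.37 to 16.65 in unstimulated neurons and 16.31 to 16.74 at 90/5 5 hr, and the 6 macrophage markers to 14.35 to 14.91 and 14.10 to 14.53. Each of these sums is mostly the signal of 1 bright gene and does not show the other markers. S100b alone was at 16.02 to 16.15 and 15.90 to 16.32, and Itgam alone at 14.16 to 14.78 and 13.77 to 14.36. Only 3 of the 11 glial and 2 of the 6 macrophage markers passed the spot filter. The part of these cells in the differences was not tested.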

How the data were processed

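The authors deposited 2 intensity values per spot and colour, the mean of the spot and the median around it, linear and not normalized, and marks of 0 or 1 for spots that were saturated, uneven or clearly above background. Per the file headers, Agilent Feature Extraction 10.7.1.1 (slide 1) and 10.7.3.1 (slides 2 and 3) made them. For each array, 36 further columns per colour were not used. Gene names come from the later of 2 array annotations, and those of the 6 probes are the same in both.

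The tools were limma 3.58.1 under R 4.3.3, version 1.17.8 of data.table and, for plots, matplotlib 3.10.9. Normexp (offset 50), loess within arrays and Aquantile between them were applied, spots were averaged per probe, and the brightest probe stood for a gene. One limma model for all 20 samples had a mean per condition, a colour term and the array as a random block (correlation 0.53), with Benjamini-Hochberg adjustment over 10355 genes at 0.05. It was run on simulated data in which each gene had the same spread in all conditions. That run cannot show how unequal spread between conditions or slides affects the calls. The members and lists were chosen with earlier results of these data known, and of the members' differences only 90/5 2 hr against 18/1 5 hr was tested. The lists of relatives were also counted at 90/5 5 hr. Genes beside the members were named by the highest correlations or from the lists by rule. The number of arrays limits the precision. Alternatives changed the background, normalization, filter, probe, design, slides, weights, test or samples. The other probe without the filter and the removal of the trend on G and C count were added after the data were seen.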

Additional observations from a re-analysis of the deposited data

Results flagged for a closer look

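All 4 samples of 90/5 5 hr and all 4 of another stimulated condition lay on opposite sides of the unstimulated samples for each gene, and these differences between conditions were not tested. The side at 90/5 5 hr entered the choice of the genes. Of all genes, 11.7% did not overlap unstimulated samples at 90/5 5 hr, 53.8% at 18/1 5 hr and 26.4% at 90/5 2 hr. On the log2 scale Lcn12 was higher than in unstimulated neurons at 90/5 5 hr (1.51) and lower at 18/1 5 hr (-1.89) and 90/5 2 hr (-1.63). Nup210 was lower at 90/5 5 hr (-1.80) and higher at 18/1 5 hr (1.49). Dcaf12l2 was lower at 90/5 5 hr (-1.50) and higher at 18/1 5 hr (at least 4.87) and 90/5 2 hr (at least 3.55), where 4 and 2 of 4 samples were saturated. In each case the conditions lie on different slides, which cannot be told apart from them.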

How the results depend on the processing

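At 90/5 5 hr the differences of Lcn12, Nup210 and Dcaf12l2 from unstimulated neurons moved by less than the spread between samples in the alternatives run, except with array quality weights (1.22 for Lcn12 and -2.08 for Dcaf12l2) and with the other probe of each gene (-0.034, 0.14 and -0.35). Without each array or sample in turn they ran from 1.39 to 1.63, -2.05 to -1.54 and -1.95 to -1.05. The other probe of Nup210 was not well above background in unstimulated, 90/5 2 hr or 90/5 5 hr samples and gives no direction there (0.024 at 90/5 2 hr, against -0.57). The genes called at 90/5 5 hr numbered 7, and from 2 (array means) to 2601 (array weights) otherwise.

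For 90/5 2 hr against 18/1 5 hr, the Nup210 call was lost with array means (-2.06, adjusted p 0.080), on slide 2 alone (-2.21, adjusted p 0.234) and in the methods' t-test (-2.29, p 0.0888, or 0.300 after Benjamini-Hochberg), and the range without single arrays or samples was -2.89 to -1.23. Dcaf12l2 was called without the array block (-1.32, adjusted p 0.0377) and ranged from -2.48 to -0.16, all resting on saturated spots, and Lcn12 from -0.80 to 1.32. The 1336 genes called became 4855 with median centring, 3419 without the array block, 820 without the trend on G and C count, and 0 with array means, on slide 2 alone and in the adjusted methods' t-test (2736, 1568 and 1974 at an unadjusted p under 0.05). With a minimum fold of 1.4 and no adjustment the methods' t-test called 1727. They ran from 59 (without array 7) to 3553 (without array 6) when single arrays or samples were left out. Dcaf12l2 has no value when saturated probes are left out. The cause of these changes was not tested.

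The replicate numbers were known in the 12 samples of slides 1 and 3. Deviations of same-numbered samples correlated at -0.05 to 0.72, above 0.1 in 9 of 12 pairs, and at 0.41 to 0.72 in the 4 pairs of unstimulated and 18/1 2 hr samples. Since 3 pairs, all with a 90/5 5 hr sample, were lower, the numbers were not taken to pair the samples. The sample with the same number was the best match in 14 of 24 checks. It was so in every check between unstimulated and 18/1 2 hr samples, and each miss involved 90/5 5 hr. Same numbers also share a colour. In a fit with the replicate block there, the 90/5 5 hr differences were 1.41, -1.84 and -1.57, and 534 genes were called against 473 without it.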
